A study of Mus musculus with 34 samples.

Results

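H3K27ac, a histone mark of active promoters and enhancers, was compared between 1 embryonic stem cell line of DBA/2J mice (D2 5-5) and 1 of C57BL/6J mice (B6 5-1). Each line was represented by 3 chromatin immunoprecipitation sequencing (ChIP-seq) libraries, chosen by the library names of the submitters, so the comparison rested on 6 of the 34 samples of the study. All 248336 regions of the shared region list were counted in these libraries and 192158 passed the filter on low counts. Throughout, a positive log2 difference means a higher level in D2. The study asked how genetic variation on chromosome 13 acts on heterochromatin. It therefore also profiled 2 congenic lines. B6-13D2 is B6 apart from a stretch of chromosome 13 taken from D2, and D2-13B6 is D2 apart from a stretch taken from B6. All lines shared a medium that held serum and LIF and that blocked MEK with PD0325901 and GSK3 with CHIR99021. Cells were fixed with formaldehyde and the chromatin was cut with micrococcal nuclease. The H3K27ac antibody of these libraries came from Cell Signaling Technology. H3K9me3, a mark of heterochromatin, was profiled from the same 4 lines. A separate series profiled H3K27ac with an abcam antibody in the C57BL/6J lines B6 4-1, 4-4 and 5-1 and the DBA/2J lines D2 2-9, 5-5 and 203. The 3 libraries of a line were labelled as technical replicates. The p-values below thus measure the spread between libraries of 1 line, and the comparison is between 2 lines rather than 2 strains.

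The 6 libraries held between 8735674 and 10008632 counts in regions. B6 replicates 1 and 2 (chi-square of 0.967 per degree of freedom) and D2 replicates 1 and 3 (0.954) differed by less than sampling noise allows for. Each pair was summed and counted as 1 sample, which left n = 2 per line for testing, while the values of all 3 libraries are given below in CPM, which relates counts to the TMM-scaled total of each library. The labelled cell type was checked at promoters. All 10 embryonic stem cell markers had a tested promoter region, with a median of 80.6 CPM in B6 and 108 CPM in D2, against 5.38 and 8.05 CPM over all promoter regions. Per kilobase of region, these medians were 22.5 and 28.4 CPM for the markers and 3.51 and 5.12 CPM for all promoters. Of 7 fibroblast markers, which could come from feeder cells, 5 had a region, Col3a1 and Postn had none, and all 5 were called higher in D2. Their summed level was 10.5 to 12.6 CPM in the B6 libraries and 31.3 to 36.7 CPM in the D2 libraries. Endoderm markers summed to 12 to 13.8 CPM in B6 and 11.4 to 13.9 CPM in D2, with 0 called and with no region at Sox17. Trophoblast markers summed to 16.0 to 20.2 and 26.6 to 30.6 CPM, and mesoderm and ectoderm markers to 11.9 to 14.8 and 17.1 to 21.6 CPM, with 2 of 5 called higher in each. The share of such cells in the differences below was not tested, and in bulk libraries more cells of a type cannot be told apart from more mark per cell.

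Acetylation of lysine 27 on histone H3 is written by the acetyltransferases p300 and CBP and removed by histone deacetylases. It marks nucleosomes beside active start sites and active enhancers, and it is absent where the same lysine carries methyl groups. In mouse embryonic stem cells, LIF signals through JAK and STAT3, and blocking GSK3 releases the WNT pathway from beta-catenin degradation. Blocking MEK holds down ERK, the kinase that drives exit from the naive state, so cells keep the network of OCT4 (Pou5f1), SOX2, NANOG, KLF4 and ESRRB active. Promoters of mammalian genes fall into CpG-rich ones, which are usually unmethylated, and CpG-poor ones, whose activity is more restricted to cell types. At imprinted genes 1 parental allele carries DNA methylation and H3K9me3, which the zinc finger protein ZFP57 keeps in place with its cofactor TRIM28, while the other allele is active.

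The sequences that bear on the results came from the mouse reference genome, GRCm38.p6, and from the RefSeq promoter windows of that build, which run from 250 bp before to 50 bp after a start site. They are those of C57BL/6J, and a base that differs in DBA/2J is not shown. The first pair contrasts the non-promoter regions that head the rule for the largest differences in each direction. In D2 the highest, relative to B6, lay in an intron of the noncoding gene Platr2, and its central 300 bp, chr13:65859769-65860068 on the plus strand, were all marked as repeat. The lowest lay between genes, and only 1 of its central 300 bases, chr4:52543250-52543549 on the plus strand, was marked as repeat. Neither is given capitals.
Highest in D2: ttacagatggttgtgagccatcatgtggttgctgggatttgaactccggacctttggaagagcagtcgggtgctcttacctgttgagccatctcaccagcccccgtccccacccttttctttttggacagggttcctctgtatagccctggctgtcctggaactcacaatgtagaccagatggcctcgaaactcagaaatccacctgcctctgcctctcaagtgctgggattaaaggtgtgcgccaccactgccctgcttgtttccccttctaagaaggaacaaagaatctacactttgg
Lowest in D2: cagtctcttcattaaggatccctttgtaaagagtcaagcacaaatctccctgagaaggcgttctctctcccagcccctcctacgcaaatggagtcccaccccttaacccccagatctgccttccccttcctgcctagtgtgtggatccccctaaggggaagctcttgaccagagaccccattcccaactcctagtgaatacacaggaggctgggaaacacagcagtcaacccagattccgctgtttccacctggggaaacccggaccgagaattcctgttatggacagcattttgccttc
The next sequence is the centre, chr17:26591087-26591386 on the plus strand, of a region in an intron of Ergic1 that fell in D2. Capitals mark the letters TCAAGGTCA that the nuclear receptor ESRRB prefers, here outside any repeat, because these letters were counted over all regions.
Ergic1 intron: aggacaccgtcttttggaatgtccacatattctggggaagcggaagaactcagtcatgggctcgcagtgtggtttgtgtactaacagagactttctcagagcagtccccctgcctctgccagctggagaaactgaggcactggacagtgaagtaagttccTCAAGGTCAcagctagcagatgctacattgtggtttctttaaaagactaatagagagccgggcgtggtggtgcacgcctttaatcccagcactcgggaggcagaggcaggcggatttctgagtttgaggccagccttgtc
The promoter windows of Lef1 (chr3:131112541-131112840, plus strand), Slc22a18 (chr7:143473539-143473838, plus strand) and Dnmt3a (chr12:3891494-3891793, plus strand) are shown with each CpG in capitals. Lef1 rose in D2 and holds 8 CpG, Slc22a18 fell and holds 2, and Dnmt3a fell and holds 18. The median was 24.0 CpG in windows that rose and 9.00 in those that fell, so Lef1 and Dnmt3a are 2 exceptions to the CpG pattern given below.
Lef1: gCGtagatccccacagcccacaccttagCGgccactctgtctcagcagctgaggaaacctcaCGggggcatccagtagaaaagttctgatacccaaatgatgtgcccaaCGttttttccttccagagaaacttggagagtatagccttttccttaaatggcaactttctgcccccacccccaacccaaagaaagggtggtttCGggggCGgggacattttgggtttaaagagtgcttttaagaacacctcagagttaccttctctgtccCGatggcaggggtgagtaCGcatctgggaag
Slc22a18: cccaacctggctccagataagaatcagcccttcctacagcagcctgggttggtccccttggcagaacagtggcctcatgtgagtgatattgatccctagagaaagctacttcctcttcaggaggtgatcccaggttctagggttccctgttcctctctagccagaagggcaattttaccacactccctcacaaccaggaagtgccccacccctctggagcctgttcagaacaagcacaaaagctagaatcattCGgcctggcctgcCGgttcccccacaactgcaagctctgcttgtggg
Dnmt3a: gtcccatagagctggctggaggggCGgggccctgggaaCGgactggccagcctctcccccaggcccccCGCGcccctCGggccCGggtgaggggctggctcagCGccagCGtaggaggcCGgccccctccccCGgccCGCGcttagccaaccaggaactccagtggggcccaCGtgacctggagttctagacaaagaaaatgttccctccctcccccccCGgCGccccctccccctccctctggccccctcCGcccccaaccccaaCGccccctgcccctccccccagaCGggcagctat
The windows of the imprinted genes Snrpn (chr7:60005150-60005449, minus strand) and Plagl1 (chr10:13090582-13090881, plus strand) are shown with capitals at the letters TGCCGC, read on either strand, which ZFP57 recognises. Both genes gained H3K27ac and had less H3K9me3 in D2.
Snrpn: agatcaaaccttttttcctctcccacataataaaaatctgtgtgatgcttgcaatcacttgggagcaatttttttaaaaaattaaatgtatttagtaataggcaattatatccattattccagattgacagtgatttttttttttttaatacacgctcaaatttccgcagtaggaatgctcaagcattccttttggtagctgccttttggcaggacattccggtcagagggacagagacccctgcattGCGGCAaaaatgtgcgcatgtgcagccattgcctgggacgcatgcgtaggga
Plagl1: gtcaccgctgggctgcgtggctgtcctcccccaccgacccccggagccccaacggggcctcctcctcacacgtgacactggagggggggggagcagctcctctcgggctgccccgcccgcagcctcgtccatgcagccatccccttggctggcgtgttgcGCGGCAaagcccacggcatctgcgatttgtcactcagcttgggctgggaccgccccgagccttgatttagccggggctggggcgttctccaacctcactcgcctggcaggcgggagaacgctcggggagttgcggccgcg

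H3K27ac differed between the 2 lines at 53945 of the 192158 regions (28.1%), by edgeR's quasi-likelihood test with Benjamini-Hochberg adjustment over all of them. Of these, 28237 regions were higher in D2 (14.7%) and 25708 were lower (13.4%). A difference of at least 2-fold was found at 15026 higher and 17328 lower regions, at least 4-fold at 2496 and 4060, and at least 8-fold at 782 and 1025. Under this scaling, calls as a whole leaned to higher levels in D2, while those of at least 2-fold leaned to lower levels. The median over all tested regions was -0.05 on the log2 scale. Without B6 replicate 3, which left 1 summed B6 sample that was assumed to vary like the other lines, 39141 regions were called and 16999 of them were lower.

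Promoters and the rest of the genome moved apart. Of 17765 regions within 1 kb of a protein-coding start site, 7355 rose in D2 (41.4%) and 877 fell (4.94%), with a median difference of 0.39. The number that fell was 544 without D2 replicate 2 and 546 without B6 replicate 3. All 3 D2 libraries lay above all 3 B6 libraries at 9804 of these promoter regions (55.2%). Of 174393 regions elsewhere, 20882 rose and 24831 fell (14.2%), which made 26.2% called, with a median of -0.10. Without B6 replicate 3, 16453 of these fell. Distance from start sites made little difference beyond the promoter. Within 10 kb of a start site, 4479 of 34827 regions were higher and 4916 lower, and farther out 16403 of 139566 were higher and 19915 lower. The plot of log2 differences shows the promoter curve shifted to the right of the other 2. Counted by gene, 7496 of 16121 protein-coding genes had a promoter region called higher (46.5%) and 629 had one called lower (3.90%).

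**Figure D1:**
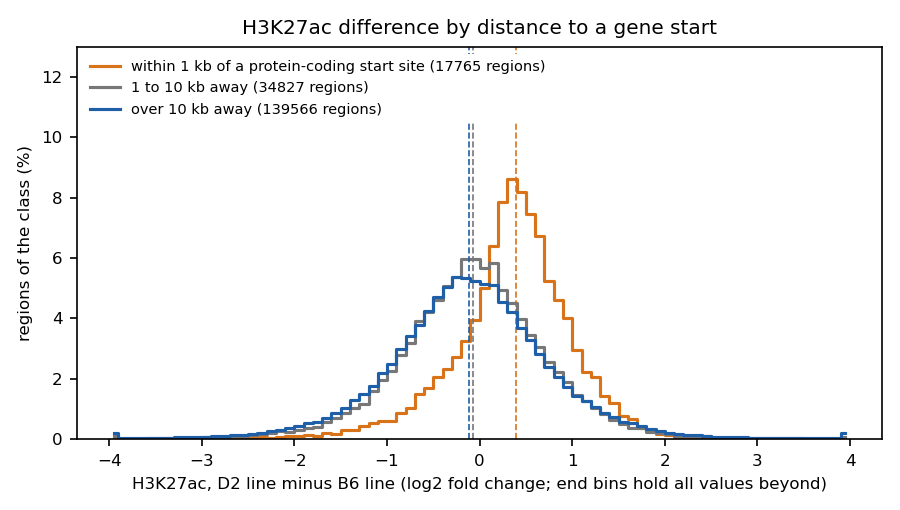
Distribution of the log2 difference in H3K27ac (D2 minus B6, x axis) over promoter, proximal and distal regions (y axis, percent of the regions in a class); dashed lines are the class medians and the end bins hold all values beyond. The promoter curve is centred near its median of 0.39, right of the other 2, whose medians are -0.07 and -0.11.

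The zero line of these differences depends on how the libraries were scaled. With scaling factors from promoter regions alone, an alternative added after the data had been seen, 13273 regions were higher and 54481 lower, so 19.6% of calls were higher against 52.3% in the main test. Under that scaling the median of all regions was -0.468, and promoters stood at a median of -0.03, with 3195 higher and 2911 lower. With library totals, 22474 regions were higher and 33348 lower (40.3% of calls higher), the median of all regions was -0.202, and promoters stood at 0.24. With relative log expression (RLE) factors, 54.3% of calls were higher. Counts of promoters by gene group, and of regions near each group, are therefore given below under both the main scaling and the promoter scaling. Under the promoter scaling, promoter counts of a group are to be read against 3195 higher and 2911 lower of 17765 promoter regions. Values of single genes, and counts in the other lines, are under the main scaling unless stated.

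Promoters that rose in D2 were richer in CpG than those that fell. The median content was 5.06 CpG per 100 bp in promoter regions that rose, 1.95 in those that fell and 3.52 in those not called. In 5 equal bins of CpG content, the share of promoters that rose was 17.0%, 26.8%, 44.7%, 54.3% and 64.1%, from poor to rich. The share that fell was 13.5%, 6.36%, 2.70%, 1.18% and 0.957%. In the 12404 RefSeq promoter windows that overlapped a tested region, the median was 24.0 CpG in 300 bp for the 5872 that rose, 9.00 for the 454 that fell and 17.0 for those not called. In 5 equal bins of mean H3K27ac, from low to high, 5.38%, 28.6%, 59.0%, 61.0% and 53.0% of promoters rose, so the least marked promoters were seldom called higher. In simulated counts, a 2-fold change was recovered at 40 of 100 regions and a 4-fold change at 92 of 100. Regions of the lowest levels were not among those changed, so recovery there was not tested.

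Letters that promoter-binding factors recognise were counted in the same windows. The GC box GGGCGG of the SP and KLF factors, read on both strands, was present in 63.0% of all promoter windows, in 71.1% of those that rose and in 42.7% of those that fell. CCGGAAG, recognised by ETS factors, was present in 16.1%, 17.1% and 8.81%. GCGCA, any base and GCGC in a row, recognised by NRF1, were present in 9.12%, 11.5% and 3.08%. TGACGTCA, the cyclic AMP response element, was present in 3.03%, 3.41% and 1.76%. CCAAT (NFY), which holds no CpG, was present in 37.6%, 37.2% and 41.2%, and CACGTG (the E-box) in 9.78%, 9.98% and 9.47%. Each of these except CCAAT holds a CpG itself, so these shares and the CpG content are not separate measurements.

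Outside promoters, regions made of repeats lost H3K27ac more often than they gained it. Where at most 25% of a region was repeat, 12.3% rose and 11.3% fell, and where over 75% was repeat, 10.9% rose and 20.9% fell. In regions over 75% repeat the median was -0.22 here and -0.33 in the separate lines. Between the congenic lines it went the other way, at 0.34, against -0.03 over all non-promoter regions. H3K9me3 had a median of -0.24 in regions over 75% repeat and 0.19 where at most 25% was repeat. Over the central 300 bp of 160204 non-promoter regions, the ESRRB letters TCAAGGTCA, read on both strands, stood in 1.66% of all regions, in 1.16% of those that rose and in 2.92% of those that fell. Of the matches in regions that fell, 61.2% lay only in repeats, against 51.8% over all regions. Counting only matches outside repeats, the shares were 0.802% of all, 0.593% of those that rose and 1.13% of those that fell. The Ergic1 intron region shown above, chr17:26590968-26591505, is 1 of them. Its level was 4.71, 6.02 and 4.90 CPM in the B6 libraries and 0.643, 0.678 and 0.686 CPM in the D2 libraries, with no overlap. It fell by 2.93 ± 0.31 (SE) on the log2 scale, with an edgeR adjusted p of 3.49e-10. The octamer ATGCAAAT, bound by OCT4, stood in 3.31% of all regions, 2.58% of those that rose and 3.65% of those that fell, and outside repeats in 2.12%, 1.54% and 2.37%. CCACACCC, bound by KLF factors, stood in 6.38%, 4.80% and 7.15%, and outside repeats in 3.99%, 3.4% and 3.92%. CATTGTT (SOX2) stood in 6.08%, 5.90% and 5.87%, and CCAG and CCAG with 6 bases between them (TFCP2L1) in 4.32%, 4.14% and 4.38%.

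Among protein-coding genes, the promoters that rose most in D2 reached differences of 2.64 to 5.79 on the log2 scale. Gm10139 headed them, with a region at chr13:65512113-65512332 of 0.307, 1.58 and 1.23 CPM in B6 and 66.0, 50.5 and 62.7 CPM in D2. The libraries did not overlap, the ratio of means was 57.6, and the log2 difference was 5.79 ± 0.21 (SE; adjusted p = 6.75e-26). This gene lies in the chromosome 13 zinc finger cluster, and in the congenic pair the difference ran the other way, at -6.98 for D2-13B6 minus B6-13D2. 2410141K09Rik, a predicted zinc finger gene of the same cluster, rose by 3.24 and stood at -2.96 in the congenic pair. Such multi-copy families can share reads between copies, and how reads with several matches were handled is not given in the sources used here.

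The other promoters in this set lay on 9 further chromosomes. Stab2, which encodes a scavenger receptor for hyaluronan, stood at 0.409, 0.592 and 0.223 CPM in B6 and 7.39, 6.67 and 8.34 CPM in D2 (4.14 ± 0.34, adjusted p = 1.73e-13). It was at most 0.669 CPM in all 6 congenic libraries, so the D2-13B6 line lacked the D2 level (congenic difference -0.75, adjusted p = 0.455). Adam23, an adhesion protein of the nervous system, stood at 3.48, 2.47 and 2.45 CPM in B6 and 30.2, 26.2 and 28.3 CPM in D2 (3.33 ± 0.18). Pdrg1, a p53-regulated gene, stood at 8.08, 8.88 and 9.80 CPM in B6 and 85.1, 81.7 and 91.9 CPM in D2 (3.25 ± 0.15, adjusted p = 2.31e-22). In both, each D2 library was far above each B6 library. Cep112, a centrosomal protein, rose by 3.23 ± 0.15, from 6.13 to 7.16 CPM in B6 to 59.0 to 63.6 CPM in D2. The kinase gene Hunk rose by 3.12 ± 0.16, from 4.64 to 5.22 CPM to 38.4 to 47.0 CPM. Nefm, the medium chain of neurofilaments, rose by 2.97 ± 0.17, from 4.05 to 5.13 CPM to 33.6 to 38.6 CPM. The remaining members were 1700093K21Rik (3.59), Gm2042 (2.85), A430078G23Rik (2.71) and Ttc28 (2.64). A region of the separate series can span several regions here. Over all 100294 regions with a counterpart, the counterpart had a median width of 2.48 kb against 0.908 kb, and 45.8% shared it with another region, so every value quoted for the separate lines is that of the whole counterpart. In the separate lines not repeated here, 2 D2 lines against 2 B6 lines, 10 of the 12 genes were measured and all 10 were higher in D2, from 1.23 for Ttc28 to 2.53 for Stab2.

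The promoters that fell most in D2 differed by -2.39 to -4.68. The first was a region at chr17:37195816-37198961, within 1 kb of the start of the olfactory receptor gene Olfr94 and over an exon of Ubd, which encodes a ubiquitin-like protein. It held 84.7, 89.4 and 104 CPM in B6 and 3.00, 4.07 and 4.00 CPM in D2 (-4.68 ± 0.18, adjusted p = 2.42e-25), a 25.2-fold gap. Mid1, an X-linked ubiquitin ligase gene that crosses the pseudoautosomal boundary in mice, held 42.1, 43.5 and 49.5 CPM in B6 and 1.82, 2.94 and 4.80 CPM in D2 (-3.86 ± 0.18). H3K9me3 at the same region of Mid1 fell as well, by 4.43. Bcat2, the mitochondrial branched-chain aminotransferase, held 148, 146 and 159 CPM in B6 and 16.3, 14.8 and 18.9 CPM in D2 (-3.22 ± 0.14, adjusted p = 4.94e-23). Its region spans chr7:45573541-45579098. In each of the 3, every B6 library lay far above every D2 library.

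Olig2, a transcription factor of oligodendrocytes and motor neurons, was marked at 10.5, 11.6 and 11.3 CPM in B6 and at 1.93, 2.15 and 2.17 CPM in D2 (-2.41 ± 0.21). Fut2, a fucosyltransferase, was marked at 14.6, 16.8 and 17.2 CPM and at 2.78, 2.94 and 3.09 CPM (-2.47 ± 0.20). Trim12a, of the tripartite motif family, was marked at 33.2, 32.0 and 35.7 CPM and at 6.53, 5.88 and 6.97 CPM (-2.40 ± 0.16). Gm37596 (-3.51), Gm14412 (-3.06), Klhdc7a (-2.97), 4930558C23Rik (-2.58), Nlrp4f (-2.40) and the aldehyde oxidase gene Aox3 (-2.39) completed the set. All 12 were lower in the D2 lines of the separate series too, from -0.51 for Bcat2 (a counterpart of 35 kb with 6 regions) to -4.93 for Trim12a. In the congenic pair 11 of 12 were lower in D2-13B6 and Nlrp4f, which lies on chromosome 13, was higher by 0.63. In the dot plot of these promoters the libraries of the 2 lines stay apart at every gene, as the rule for naming them required.

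**Figure D2:**
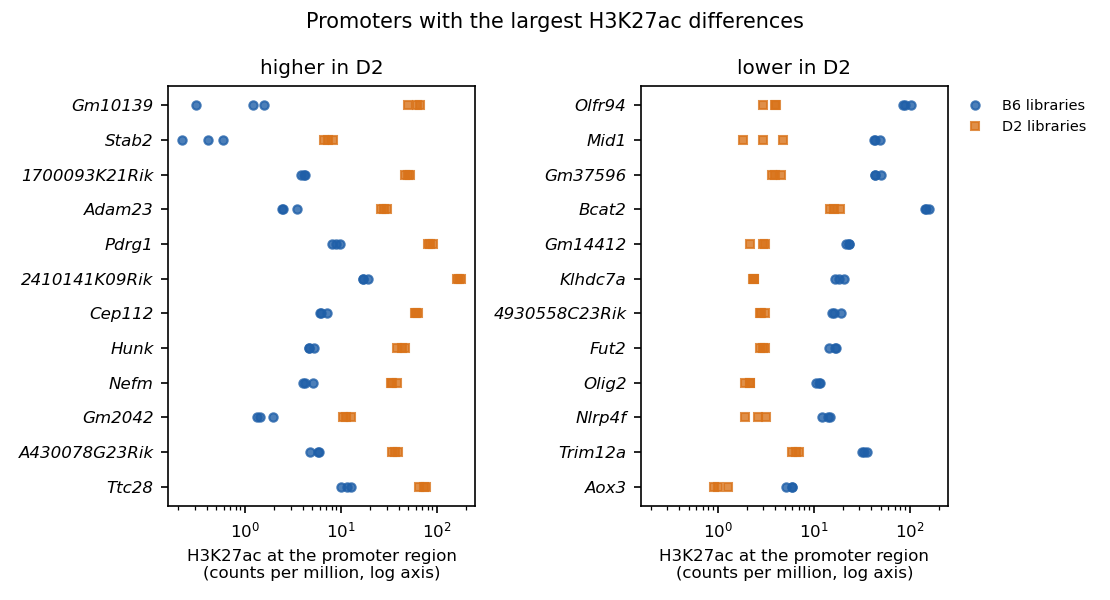
H3K27ac (CPM, log axis) in each library at the 12 protein-coding promoters that rose most and the 12 that fell most in D2. Circles are the 3 B6 libraries and squares the 3 D2 libraries; at no gene do the groups overlap.

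Of 25 genes of the naive pluripotency network, 7 rose and 1 fell, against 46.5% and 3.90% of all promoter genes, and the median was 0.22. With promoter scaling the median was -0.18, with 5 higher and 9 lower, where 3195 of 17765 promoter regions were higher and 2911 lower. Pou5f1, which encodes OCT4, held 169.7, 165 and 183 CPM in B6 and 234, 213 and 233 CPM in D2 (0.36 ± 0.12, adjusted p = 0.0218). This call was lost without B6 replicate 3, without D2 replicate 2 or with no filter, and the value was -0.04 with promoter scaling. Nanog held 75.3, 72.4 and 85.1 CPM in B6 and 98.0, 87.6 and 97.4 CPM in D2, a difference of 0.24 that was not called (adjusted p = 0.163) although the libraries did not overlap. Sox2, the partner of OCT4, rose by 0.66 ± 0.12, from 71.9, 75.1 and 78.0 CPM to 123, 116 and 122 CPM. Esrrb stood at 0.27 and was not called.

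The Kruppel-like factors Klf4 and Klf5 rose, and Klf2, at -0.12, did not pass the test except at -0.52 with promoter scaling and in 3 other settings. Klf4 went from 41.8, 45.8 and 50.7 CPM in B6 to 79.6, 72.5 and 81.9 CPM in D2 (0.71 ± 0.13), and Klf5 from 17.5, 17.7 and 17.6 CPM to 33.8, 29.4 and 33.1 CPM (0.85 ± 0.14). Gbx2, a homeobox gene downstream of LIF and STAT3, rose most of the list, from 4.71, 4.94 and 5.35 CPM to 13.9, 11.4 and 13.1 CPM (1.34 ± 0.18, adjusted p = 9.38e-08). Utf1 rose by 0.91 ± 0.13 and the T-box gene Tbx3 by 0.45. Lin28a, the repressor of let-7 microRNA maturation, fell from 24.8, 23.4 and 27.4 CPM to 12.1, 12.2 and 15.1 CPM (-0.97 ± 0.15, adjusted p = 9.88e-07). It was also lower in the separate D2 lines, at -0.83, while the congenic lines stood at 0.01. Over the 25 promoters the separate lines had a median of -0.02, with 1 higher and 2 lower, where 27% and 7.37% of all promoter regions were called higher and lower.

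Genes of formative and primed pluripotency, the states that follow the naive one, showed both directions. Of 11 genes, 4 rose and 1 fell (46.5% and 3.90% of all promoter genes), with a median of 0.50 (0.08 with promoter scaling, 3 higher and 1 lower). The DNA methyltransferase gene Dnmt3a fell from 51.3, 54.8 and 54.8 CPM in B6 to 24.4, 21.4 and 24.2 CPM in D2 (-1.22 ± 0.13, adjusted p = 4.33e-10). Its relative Dnmt3b rose from 2.56, 2.57 and 2.45 CPM to 5.89, 5.65 and 6.40 CPM (1.24 ± 0.24, adjusted p = 5.91e-05). Dnmt3a stood at -0.67 and Dnmt3b at 0.79 in the separate lines, but D2-13B6 exceeded B6-13D2 at Dnmt3a by 1.64. The zinc finger genes Zic5 and Zic2 lie side by side and both rose. Zic5 went from 22.7 to 27.2 CPM in B6 to 51.8 to 58.4 CPM in D2 (1.14 ± 0.13), and Zic2 rose by 0.99. Otx2, a homeobox gene of the epiblast, rose from 4.40, 4.64 and 4.68 CPM to 8.25, 7.46 and 8.91 CPM (0.83, adjusted p = 0.00128; 0.41 and not called with promoter scaling), and stood at -1.09 in the congenic pair.

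The genes of LIF, WNT and ERK signalling, which the culture medium acts on, rose at 18 of 23 promoters and fell at 1, against 46.5% and 3.90% of all promoter genes, with a median of 0.81. With promoter scaling 15 rose and 2 fell and the median was 0.41, against -0.03 for all promoters. Fibroblast genes moved with the same line, at 18.6 to 21.3 CPM summed over B6 libraries and 51.3 to 56.6 CPM over D2 libraries, and their contribution to this list was not tested. On the receptor side, Lifr, the LIF receptor, rose from 14.7, 14.3 and 15.0 CPM to 36.0, 32.1 and 32.2 CPM (1.18 ± 0.14, adjusted p = 4.15e-09). Its partner Il6st rose by 0.90. The fibroblast growth factor receptor gene Fgfr1 rose from 6.75, 6.91 and 6.35 CPM to 21.8, 19.2 and 20.5 CPM (1.62 ± 0.16, adjusted p = 6.77e-11). The kinase gene Jak1 rose by 1.05 ± 0.22 and Stat3, its effector, by 0.46. Socs3, the feedback inhibitor induced by STAT3, rose from 10.8, 13.4 and 13.1 CPM to 30.1, 27.6 and 34.1 CPM (1.26 ± 0.15).

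Targets and effectors of the WNT pathway rose in part. Lef1, whose product binds beta-catenin at WNT targets, went from 4.71, 5.33 and 3.34 CPM to 13.8, 13.6 and 13.8 CPM (1.64 ± 0.20, adjusted p = 9.46e-09). Sp5, a direct WNT target, went from 10.4, 11.0 and 10.1 CPM to 25.2, 23.5 and 24.8 CPM (1.22 ± 0.15). Myc, on which both LIF and WNT act, went from 17.9, 19.6 and 17.5 CPM to 42.9, 42.2 and 46.2 CPM (1.26 ± 0.14). Each D2 library lay above every B6 library at these genes. Axin2 rose by 0.66, Ctnnb1 by 0.67 and Tcf7l1 by 0.66. Tcf7 (0.41), Lgr5 (0.72) and Nkd1 (0.19) were not called. Cdx1 was the 1 member that fell, by 0.52, from 24.8, 24.3 and 26.4 CPM to 19.6, 16.7 and 16.9 CPM (adjusted p = 0.00472).

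Other members of the list lie downstream of ERK, and most of those named here rose. Spry4, a feedback inhibitor of receptor tyrosine kinases, went from 12.7, 13.9 and 10.8 CPM in B6 to 37.6, 34.0 and 38.9 CPM in D2 (1.57 ± 0.14, adjusted p = 5.13e-12). The ETS factor gene Etv5 went from 16.3, 21.2 and 21.6 CPM to 47.5, 44.1 and 51.0 CPM (1.23 ± 0.14), and Etv4 from 41.8, 45.2 and 47.5 CPM to 93.5, 84.9 and 93.6 CPM (0.99). The phosphatase gene Dusp6 rose by 0.81 and Egr1 by 0.56, whereas Spry2 stood at 0.11 and was not called, but was called lower at -0.29 with promoter scaling. Of the 23 promoters, 10 were higher in the separate D2 lines and 2 were lower, with a median of 0.25. Over all promoter regions with a counterpart there, 27% were higher and 7.37% lower, with a median of 0.18. Lef1 stood at 0.75 there and Etv5 at 0.61. Fgfr1 stood at 0.23 and Lifr at 0.03, over counterparts of 7.84 and 6.48 kb that hold 2 and 3 of the regions counted here.

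**Figure D3:**
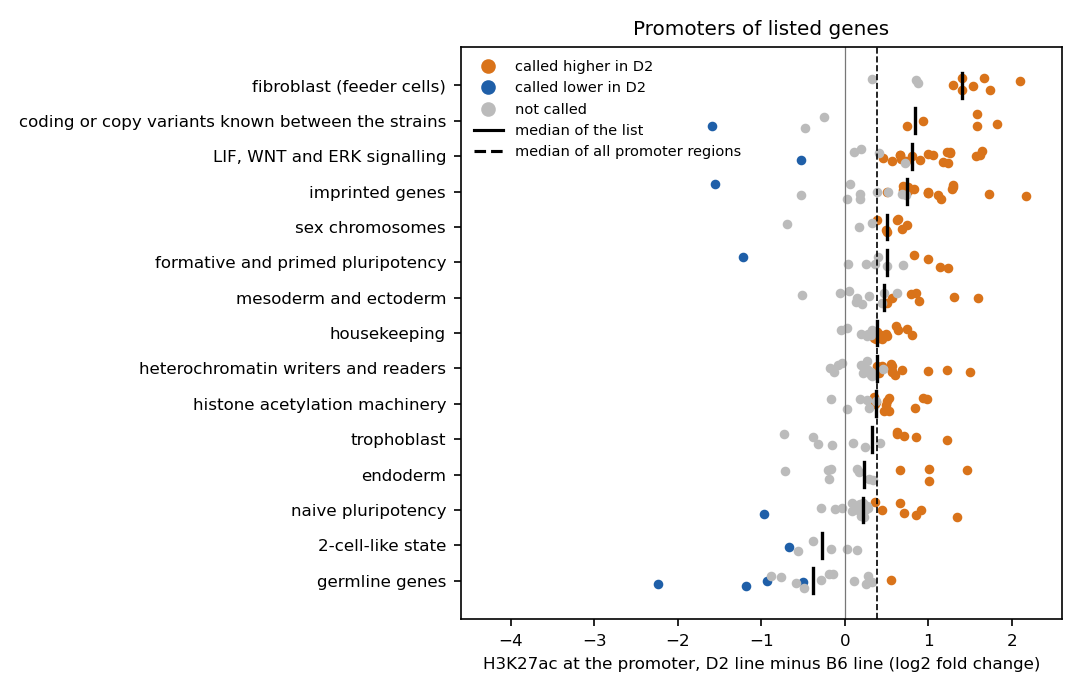
Log2 difference in H3K27ac (D2 minus B6, x axis) at the promoter of each tested gene, by gene list, with coloured points for called genes, a bar at the median of each list and a dashed line at the median of all promoter regions (0.39). Signalling genes (median 0.81), fibroblast genes (1.4) and imprinted genes (0.74) lie to the right, and germline genes (-0.38) and 2-cell genes (-0.27) to the left.

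Imprinted genes were examined for both marks. Of 32 imprinted genes, 27 had a tested promoter region, in 25 regions. Of the 27, 17 rose, 1 fell and 9 were not called, with a median of 0.74, or 0.33 with promoter scaling (10 higher, 3 lower). The noncoding genes Meg3, Kcnq1ot1 and Peg13 lie more than 1 kb from any protein-coding start site and so outside the promoter class. Among the other 24 genes, 14 rose and 1 fell, against 46.5% and 3.90% of all promoter genes. H3K9me3 was measurable at 22 of the regions, where it had a median of -0.79, with 10 lower and 0 higher in D2, against 6.76% lower and 4.58% higher of all regions tested for that mark. At 8 regions H3K27ac rose and H3K9me3 fell, of which 5 belonged to the promoter class and 3 to those noncoding genes. In the promoter class this held at 5 of 19 imprinted regions and 110 of all 11458 regions tested for both marks.

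Single genes of the 8 regions where the marks went opposite ways follow. At Peg3 and Usp29, which share a region, H3K27ac went from 35.8, 38.1 and 40.3 CPM in B6 to 80.3, 70.5 and 82.5 CPM in D2 (0.99 ± 0.13). H3K9me3 there went from 53.4, 50.6 and 36.4 CPM to 11.3 and 11.8 CPM (-1.89, edgeR adjusted p = 1.17e-09). Snrpn, whose start lies in the Prader-Willi imprinting centre, went from 29.9, 29.4 and 32.9 CPM to 64.3, 58.0 and 66.7 CPM of H3K27ac (1.00 ± 0.13) and from 26.4, 18.5 and 19.5 CPM to 5.01 and 4.93 CPM of H3K9me3. For Mest, H3K27ac rose from 9.31, 8.39 and 9.58 CPM to 21.2, 20.1 and 19.4 CPM (1.15 ± 0.15), and H3K9me3 fell from 57.6, 40.2 and 38.5 CPM to 11.3 and 12.3 CPM. In every one of these the libraries of both lines stayed apart for both marks.

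The same was seen at Plagl1, a zinc finger gene, with 5.63, 5.43 and 4.57 CPM of H3K27ac in B6 and 12.1, 9.83 and 12 CPM in D2 (1.11 ± 0.19), and an H3K9me3 difference of -1.88. Kcnq1ot1, a long noncoding RNA that silences its neighbours in cis, held 16.6, 17.4 and 17.4 CPM in B6 and 40.4, 40.9 and 44.8 CPM in D2 (1.29 ± 0.14, adjusted p = 3.72e-10), with H3K9me3 at -1.88. Peg13, a noncoding RNA in an intron of Trappc9, held 3.99, 3.65 and 3.90 CPM and 13.1, 11.8 and 13.9 CPM (1.73 ± 0.19), with H3K9me3 at -2.08. Zrsr1 rose by 0.76, with H3K9me3 at -1.32. Meg3, a noncoding RNA expressed from the maternal allele, held 0.819, 0.987 and 0.557 CPM in B6 and 4.28, 2.94 and 3.66 CPM in D2 (2.17 ± 0.33), with H3K9me3 at -1.33 (adjusted p = 0.0475).

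Other imprinted genes did not show both changes. At Mcts2 H3K9me3 fell by 2.36, from 17.4, 18.5 and 11.1 CPM to 1.88 and 3.45 CPM, while H3K27ac differed by 0.03 and was not called. At Nnat H3K9me3 fell by 1.24, and the H3K27ac difference of 0.73 missed the threshold (adjusted p = 0.0501). Gnas rose from 7.06, 8.09 and 7.69 CPM to 18, 18.9 and 19 CPM of H3K27ac (1.30 ± 0.16), with an H3K9me3 difference of -0.95 that was not called (adjusted p = 0.0771). Nap1l5 rose by 1.28 ± 0.35, a call lost in DESeq2 (1.24) and with promoter scaling (0.85, adjusted p = 0.0612), and Igf2r by 0.83, with no call for H3K9me3. Peg10 and Sgce, which share a region, rose by 0.70, with H3K9me3 at 0.02. Slc22a18, the member that fell, held 1.23, 1.38 and 1.45 CPM in B6 and 0.214, 0.791 and 0.343 CPM in D2 (-1.56 ± 0.49, adjusted p = 0.0126). D2 replicate 1 is below the floor of 3 counts (0.321 CPM), and the call was lost without that library or without B6 replicate 3.

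The letters TGCCGC, searched after these values were seen, could be counted only at imprinted genes with a RefSeq window in their region. They stood in the windows of 5 of 8 such genes with lower H3K9me3 and of 2 of 10 others tested for that mark. Over all 12404 promoter windows they stood in 18.7%. Over the separate lines the imprinted regions had a median of 0.55, with 16 of 22 higher and 1 lower, against 27% and 7.37% of all promoter regions. Between the congenic lines the median was 0.74, with 12 of 25 regions higher in D2-13B6 and 1 lower, against 42.0% and 5.13%. Peg13 stood at 1.41 in the separate lines, Kcnq1ot1 at 0.75 and Mest at 0.74, while Plagl1 differed by 0.00 between the congenic lines.

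**Figure D4:**
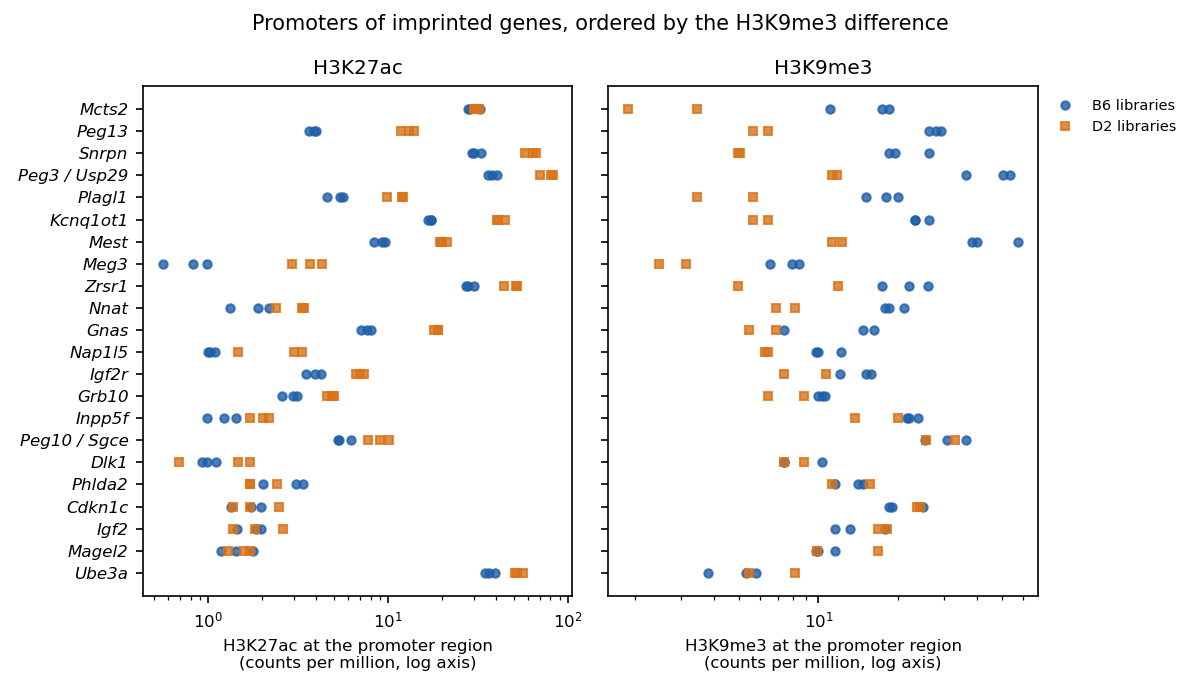
H3K27ac (left) and H3K9me3 (right) at the promoter regions of imprinted genes measured for both marks (CPM, log axes), ordered by the H3K9me3 difference. Circles are the 3 B6 libraries and squares the D2 libraries, 3 for H3K27ac and 2 for H3K9me3; from Peg13 to Zrsr1 in the upper rows, D2 lies to the right for H3K27ac and to the left for H3K9me3.

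Germline genes are kept silent in stem cells by DNA methylation and H3K9 methylation. Of 19 genes, 16 had a tested region, of which 1 rose, 4 fell and 11 were not called (46.5% and 3.90% of all promoter genes rose and fell), with a median of -0.38 (-0.80 with promoter scaling, 0 higher and 5 lower). Sycp3, a protein of the meiotic chromosome axis, fell from 3.89, 3.55 and 3.68 CPM to 1.18, 0.565 and 0.571 CPM (-2.24 ± 0.33, adjusted p = 6.17e-07). It was lower in the separate D2 lines, at -1.82, and in D2-13B6, at -2.20. Dazl, an RNA-binding protein of germ cells, fell from 3.68, 4.64 and 4.79 CPM to 2.25, 1.81 and 2.97 CPM (-0.93, adjusted p = 0.00465), and H3K9me3 there rose by 1.00. Mael, of the piRNA pathway, fell by 1.18 ± 0.33, a call that was lost in DESeq2 and without D2 replicate 2. Tex19.1 fell by 0.50, a call lost in DESeq2, with no filter and without B6 replicate 3 or D2 replicate 2. Hormad1 rose by 0.55, a call lost in DESeq2, under 3 other settings of scaling or filter (0.13 with promoter scaling) and without B6 replicate 3 or D2 replicate 1. Only 8 of these regions were measured in the separate lines, with a median of 0.03, 0 higher and 1 lower (27% and 7.37% of all promoter regions). Between the congenic lines the list had a median of 0.42, with 5 higher and 1 lower in D2-13B6, beside a median of 0.41 over all promoter regions, with 42.0% higher and 5.13% lower.

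Genes of the heterochromatin machinery rose at 12 of 25 promoters and fell at 0, with a median of 0.38, where 46.5% of all promoter genes rose with a median of 0.41. With promoter scaling 4 rose, 5 fell and the median was -0.02, where 3195 of 17765 promoter regions rose and 2911 fell. The H3K9 methyltransferase gene Suv39h2 stood out, at 9.62, 9.18 and 8.69 CPM in B6 and 28.3, 23.3 and 26.7 CPM in D2 (1.5 ± 0.15, adjusted p = 1.1e-10). Ehmt1, which encodes the methyltransferase GLP, stood at 12, 12.9 and 13.9 CPM and at 31.7, 28.6 and 31.8 CPM (1.22 ± 0.15). Both were higher in the separate D2 lines as well, at 0.65 and 0.63. Smchd1, a factor of X inactivation and imprinting, rose by 0.99, and Trim28, the cofactor of KRAB zinc finger proteins, by 0.68. Zfp57 itself stood at 0.22 and was not called.

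Housekeeping genes set the level against which these lists can be read. Of 20 genes 13 rose and 0 fell (46.5% and 3.90% of all promoter genes), with a median of 0.39, which became -0.02 with promoter scaling (4 higher, 3 lower). Actb rose by 0.74 and Gapdh by 0.64. By median, the naive list lay below this level, the heterochromatin list within 0.01 of it, and the signalling and imprinted lists above it, in both scalings. No difference between lists was tested.

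Fibroblast genes, which feeder cells would bring, rose at 7 of the 10 promoters with a region and fell at 0, against 46.5% and 3.90% of all promoter genes, with a median of 1.4 (0.98 with promoter scaling, 6 higher). Over the 10, levels summed to 18.6 to 21.3 CPM in the B6 libraries and 51.3 to 56.6 CPM in the D2 libraries. Acta2, the smooth muscle actin, went from 1.74, 0.888 and 1.78 CPM to 6.85, 5.88 and 6.28 CPM (2.10 ± 0.33, adjusted p = 1.58e-06). Col1a2, a collagen I chain, went from 2.66, 2.76 and 2.12 CPM to 9.42, 6.67 and 9.48 CPM (1.74 ± 0.27). Prrx1 (1.67), Twist1 (1.53), Col1a1 (1.4), Twist2 (1.4) and Thy1 (1.30, a call lost without B6 replicate 2, in DESeq2 and with promoter scaling) rose as well, while Fap, Dcn and Pdgfrb were not called. Of these promoters 4 were measured in the separate lines, with 0 higher and 1 lower (27% and 7.37% of all promoter regions). Thy1 stood at 0.19 and Twist1 at 0.45 there, neither called, Dcn at -0.67, not called, and Pdgfrb at -0.52 (adjusted p = 0.0460). Between the congenic lines 1 of the 10 was higher in D2-13B6 and 0 lower, against 42.0% and 5.13% of all promoter regions. The median was 0.33, beside 0.41 over all promoter regions. Acta2 held 4.78, 4.31 and 4.88 CPM in B6-13D2 and 1.92, 6.40 and 7.54 CPM in D2-13B6.

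Early lineage genes were read against the 46.5% of all promoter genes that rose. Endoderm genes rose at 4 of 12, with Lama1 at 1.46 and the shared region of Col4a1 and Col4a2 at 1.01, all genes of the basement membrane. Trophoblast genes rose at 5 of 12, among them Cdx2, from 3.79, 5.63 and 4.12 CPM to 10.7, 11.3 and 9.03 CPM (1.22 ± 0.19). Mesoderm and ectoderm genes rose at 7 of 17. Sox1, a neural gene, went from 2.05, 2.17 and 2.23 CPM to 7.39, 6.22 and 5.83 CPM (1.59 ± 0.24), and Meis1 from 5.42, 7.6 and 5.68 CPM to 16.2, 13.7 and 17.1 CPM (1.31 ± 0.18). None of the genes in these 3 lists fell under the main scaling. With promoter scaling, 3 endoderm genes rose and 3 fell, 2 trophoblast genes rose and 2 fell, and 2 mesoderm and ectoderm genes rose and 1 fell, with medians of -0.19, -0.09 and 0.06.

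At genes known to differ between the strains in coding sequence or copy number, 5 of 8 genes rose and 1 fell, against 46.5% and 3.90% of all promoter genes, with a median of 0.84 (0.43 with promoter scaling, 4 higher and 2 lower). They stand on 7 regions, of which 4 rose. Glo1, the glyoxalase that lies in a segment duplicated in some inbred strains including DBA/2J, shares the region chr17:30627026-30627674 with Dnah8. It held 21.8, 24.0 and 26.2 CPM in B6 and 72.9, 70.5 and 76.6 CPM in D2 (1.58 ± 0.13, adjusted p = 2.33e-13). Its neighbour Btbd9 rose by 0.94. Myo5a, in which DBA/2J carries the dilute allele, rose from 5.63, 8.49 and 7.02 CPM to 26.3, 24.1 and 24.8 CPM (1.82 ± 0.16). Nnt, in which C57BL/6J carries a deletion of coding exons, was marked more in B6, at 26.7, 26.2 and 26.9 CPM against 8.57, 8.59 and 9.37 CPM (-1.59 ± 0.15, adjusted p = 1.39e-11). The separate lines differed the same way, at 0.90 for Glo1, 0.81 for Myo5a and -1.17 for Nnt.

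Regions near the listed genes, within 50 kb and outside promoters, were counted in the same way. Of all non-promoter regions, 12% rose and 14.2% fell, and with promoter scaling 5.78% rose and 29.6% fell. Around signalling genes 84 of 388 regions rose (21.6%) and 25 fell (6.44%), but with promoter scaling 38 rose and 82 fell. Around naive pluripotency genes 102 of 439 rose (23.2%) and 68 fell (15.5%), and with promoter scaling 41 and 156. The balance of calls also turned around imprinted genes, where 42 of 252 rose and 22 fell (22 and 60 with promoter scaling). Around fibroblast genes 30 of 111 rose and 10 fell (19 and 17). Calls leaned to lower levels in both scalings around germline genes, where 8 of 141 rose and 20 fell (2 and 37), and around 2-cell genes, where 4 of 92 rose and 19 fell (2 and 45).

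The most changed of several flanking regions is given for single pluripotency genes, so its size cannot be set against that of the 1 promoter. Around Pou5f1, 13 of 19 regions rose and 3 fell (3 and 4 with promoter scaling). The region chr17:35489279-35491383, 14.6 kb from its start, fell from 30.2, 29.6 and 33.1 CPM to 1.29, 1.47 and 2.17 CPM (-4.25 ± 0.20, adjusted p = 1.02e-21). It stood at -5.22 in the congenic pair. In the separate lines it falls in a counterpart of 9.68 kb with 4 other regions, which stood at -0.62. Around Sox2, 8 of 15 regions rose and 0 fell (4 and 0 with promoter scaling), and chr3:34698154-34701968, 47.7 kb away, rose from 20.9, 21.2 and 27.2 CPM to 101, 88.3 and 99.6 CPM (2.00, with 0.96 in the separate lines). Prdm14 had 17 of 24 flanking regions higher and Klf2 12 of 20 (8 and 5 with promoter scaling). Called lower were 11 of 24 flanking regions at Nr5a2, 7 of 12 at Lin28a and 5 of 17 at Tfcp2l1 (19, 9 and 10 with promoter scaling). At Tfcp2l1, chr1:118619885-118621638 fell from 27.6, 28.1 and 31.5 CPM to 8.25, 7.46 and 7.31 CPM (-1.94). In the separate lines it has no value of its own, since its counterpart of 42.4 kb also spans the promoter.

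Among signalling genes, 4 of 13 flanking regions of Lef1 rose (3 with promoter scaling), and chr3:131105548-131108225 went from 4.61, 4.54 and 6.24 CPM to 30.2, 24.1 and 25.9 CPM (2.35, with 0.73 in the separate lines). Around Myc 6 of 14 rose and 0 fell (4 and 1 with promoter scaling). Spry2, whose promoter was not called, had 6 of 17 flanking regions lower and 2 higher (13 and 2 with promoter scaling). Its region chr14:105863997-105866726 fell from 46.2, 48.7 and 49.9 CPM to 18.3, 15.5 and 15.8 CPM (-1.56).

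Away from promoters, differences reached their full range. The 8 regions that rose most included 5 on chromosome 13 between 65 and 67 Mb. The first, chr13:65859717-65860120 in an intron of Platr2, held 0.716, 0.494 and 0.891 CPM in B6 and 111, 104 and 107 CPM in D2, a ratio of means of 153 (7.25 ± 0.21, adjusted p = 1.62e-28). H3K9me3 rose there as well, by 4.19, and the congenic difference was -7.64, so the level followed the origin of the chromosome 13 segment. The others of this cluster lay at chr13:66145567-66145760 (6.81), chr13:66422295-66422555 (6.74), chr13:65564245-65564451 (6.69) and chr13:66675493-66675938 (5.5, in an intron of Zfp640). Outside it, chr5:116707407-116710721, in an intron of Gm43122 and 116 kb from Srrm4, held 2.87, 2.27 and 1.00 CPM in B6 and 84.9, 73.4 and 83.0 CPM in D2 (5.28 ± 0.21). It was higher in the separate D2 lines by 3.20 and in D2-13B6 by 6.26. Regions at chr12:22056388-22056615 (at least 33.7-fold higher, against a floor of 3 counts per library) and chrY:90723574-90723947 (5.56) completed the set.

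The regions that fell most were all but empty in D2. At chr4:52542805-52543994, shown above, the B6 libraries held 8.70, 9.87 and 9.14 CPM and the D2 libraries 0, 0 and 0, at least 27.6-fold lower. At chr11:14080184-14081655, in an intron of 4930554G24Rik, B6 held 31.6, 34.8 and 36.4 CPM and D2 0, 0.113 and 0, at least 103-fold lower. Introns of Skint4 (chr4:112159399-112161519, at least 51.6-fold), Tasp1 (chr2:140036763-140037980, at least 25.1-fold) and Zfp420 (chr7:29877005-29878224, at least 43.3-fold) followed. Between genes lay chr11:71293006-71294345, 62.3 kb from the inflammasome gene Nlrp1b (at least 42.7-fold), chr4:112378697-112379342 near Skint9 (at least 17.9-fold) and chr10:69035491-69037415, 171 kb from Rhobtb1 (28.3, 29.3 and 30.6 CPM in B6, at most 0.229 CPM in D2, at least 88.0-fold). The floor of 3 counts per library corresponds to 0.296 to 0.343 CPM.

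In all, 32 regions had at most 3 counts in each D2 library and at least 5 CPM in B6, on 13 chromosomes, with 7 on chromosome 4 and 0 at promoters. H3K9me3 had a median there of 1.43 CPM in D2 and 4.71 CPM in B6, each the mean over libraries of the line, and 1 of these regions had 0 counts of H3K9me3 in D2. Whether the sequence is present in D2 was not tested. Of these, 29 had a counterpart in the separate lines, and all 29 counterparts were called lower, and 31 of 32 were called lower in D2-13B6 than in B6-13D2. The reverse, at most 3 counts in each B6 library and at least 5 CPM in D2, was found at 5 regions on 2 chromosomes.

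Differences clustered along the genome. Of 2231 windows of 1 Mb with at least 20 tested regions, 20 had over 50% of their regions called higher in D2 and 11 had over 50% called lower. These counts were unstable, at 12 and 6 without B6 replicate 3, 13 higher without D2 replicate 2, 19 lower without D2 replicate 3, and 37 and 41 with all libraries kept single. The most one-sided was chromosome 4 from 112 to 113 Mb, with the Skint genes of epithelial T cell selection (Skint1, 2, 3, 4, 6, 9 and 10), where 19 of 20 regions were lower (95.0%, median -4.07). Summed H3K27ac was 79.5 to 93.3 CPM in B6 and 5.37 to 7.01 CPM in D2. H3K9me3 was lower there too, with a median of -3.52, and so was H3K27ac in the separate D2 lines, at -4.50 over 7 regions. Chromosome 13 from 66 to 67 Mb, in the zinc finger cluster, had 168 of 183 regions higher (91.8%, median 3.91). Summed levels there were 1485 to 1671 CPM in B6, 16432 to 17950 CPM in D2, 19060 to 19536 CPM in B6-13D2 and 1735 to 2164 CPM in D2-13B6. The 2 lines with the D2 segment were thus high and the 2 with the B6 segment low, and H3K9me3 rose there as well (median 2.91).

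The other windows of this set lay on chromosome 12. From 23 to 24 Mb, 64 of 71 regions were higher (90.1%), with sums of 337 to 369.6 CPM in B6 and 828 to 877 CPM in D2. From 19 to 20 Mb, 91 of 102 were higher (89.2%), with sums of 536 to 588 CPM and 1176 to 1494 CPM. From 22 to 23 Mb, 60 of 68 were higher (88.2%), with sums of 242 to 273 CPM and 683 to 782 CPM. H3K9me3 was higher in D2 in these windows too, with medians of 1.66, 0.7 and 1.34 in the same order. The H3K27ac differences were not matched in the separate lines, whose medians were 0.20, -0.13 and -0.52. The same 2 lines, B6 5-1 and D2 5-5, stood at 446 and 272 CPM in the window from 22 to 23 Mb in that series. Antibody and region list differ between the series, and which of these moves with the reversal was not tested. How reads with several matches were handled is not given in the sources used here, and the sums in the chromosome 12, chromosome 13 and Skint windows depend on it to an extent that was not tested. Whole chromosomes had medians from -0.15 (chromosome 19) to 0.08 (X), apart from Y at 0.25 over 141 regions. In the congenic pair, chromosome 11 stood at 0.44 against -0.01 here.

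**Figure D5:**
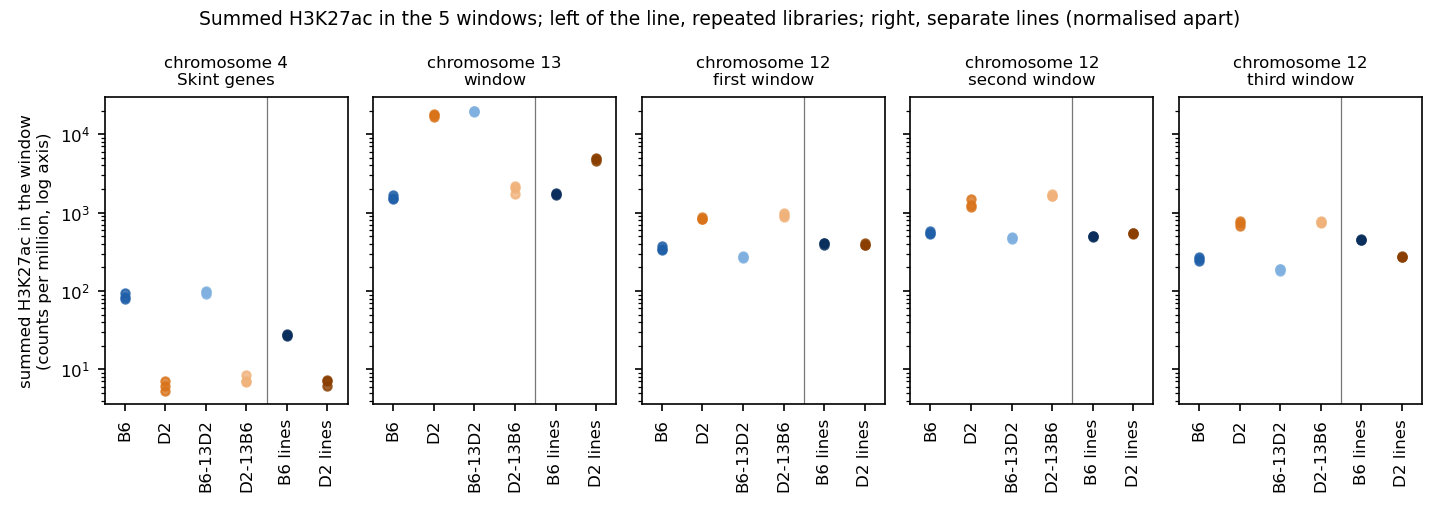
Summed H3K27ac (CPM, log axis) in the 5 most one-sided windows of 1 Mb (y axis), by line and library (x axis), with the separate lines, scaled on their own, right of the vertical line. In the Skint window D2 is low at 5.37 to 7.01, in the chromosome 13 window the 2 lines with the D2 segment are high, and in the 3 chromosome 12 windows D2 and D2-13B6 are high.

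H3K9me3 was tested at 86874 of the same regions between the same lines, with 3 B6 and 2 D2 libraries of 1573625 to 2012189 counts, and 9853 were called (11.3%), 3979 higher and 5874 lower. The 2 D2 libraries differed beyond sampling noise, with a chi-square of 1.55 per degree of freedom. Of 78531 regions tested for both marks, 4998 were called for both. The marks went the same way at 1402 regions where both rose and 1518 where both fell, and opposite ways at 1292 where H3K27ac rose and H3K9me3 fell and 786 where the reverse held. Outside chromosome 13 from 65 to 67 Mb, both rose at 1104 and both fell at 1517, while H3K27ac rose and H3K9me3 fell at 1292 and the reverse held at 785. H3K9me3 was thus called lower more often than higher both where H3K27ac rose and where it fell. The same held over all regions called for H3K9me3, with 5874 lower and 3979 higher. Against that share, the lean to lower H3K9me3 was weaker where H3K27ac rose and stronger where it fell, which was not tested.

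Of the regions where the marks went opposite ways, 1182 and 707 lay outside promoters. At chr4:20976071-20977296, 197 kb from Nkain3, H3K27ac was 1.33, 0.987 and 1.00 CPM in B6 and 21.4, 24.8 and 23.3 CPM in D2 (4.40), with H3K9me3 at -2.74. Exons of Camta1 (chr4:151147452-151148586, 3.93 and -3.06) and Aox2 (chr1:58321975-58323088, 3.57 and -2.95) and a region at chr10:82570466-82571456 (3.64 and -3.26) followed. In the other direction, chr16:90297026-90298790, 12.5 kb from Scaf4, held 30.5, 32.1 and 34.4 CPM of H3K27ac in B6 and 0.75, 1.02 and 0.80 CPM in D2 (-5.24), with H3K9me3 at 2.66. Its neighbour chr16:90298813-90300883 stood at -5.18 and 2.21, and the Olfr94 and Ubd region at -4.68 and 1.76.

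The differences between these 2 lines were set beside those of other lines of the strains. In the separate lines without B6 5-1 and D2 5-5, 2 B6 lines against 2 D2 lines, 35777 of 96345 regions were called (37.1%, 17.7% higher and 19.4% lower). Of the 53945 regions called here, 39969 had a counterpart overlapping by at least 1 bp. Both comparisons called 23750 of them, with the same direction at 22967 (96.7%), and 98.3% where the difference here was at least 2-fold. With counterparts at most 2 times as wide as the region, 7132 of 7310 did so (97.6%). The sizes were smaller over these counterparts, with medians of 0.35 and -0.58 in the separate lines at regions whose medians here were 0.90 and -1.12. At promoters the direction was the same at 97.6% of 3489 regions called in both. Promoters as a class were at a median of 0.18 in the separate lines and 0.41 between the congenic lines, against 0.39 here. Over 100173 regions with both values, Pearson's r was 0.71 and Spearman's rho 0.66, a description across regions that share libraries.

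Between the congenic lines, 58479 of 192158 regions were called (30.4%), 16.8% higher and 13.7% lower in D2-13B6. They share no library with the comparison above but were fitted together with it, and D2-13B6 replicate 1 differed from the other replicates of its line (chi-square of 2.81 and 2.79 per degree of freedom). Both comparisons called 30499 regions, with the same direction at 26984 (88.5%), at 89.9% outside chromosome 13 and at 97.8% of promoters. Opposite signs were found at 3515 regions.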

How the data were processed

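ChIP-seq libraries of H3K27ac and H3K9me3 were compared between mouse embryonic stem cell lines. The deposited tables hold raw read counts for each region after removal of duplicates, per the file headers; how the region list was made is not given in the sources used here. Per the submitters' processing notes, the tools were Trimmomatic 0.39, HISAT2 2.2.1, MACS 1.4.2, bedtools 2.9.2 and edgeR, with the build mm10. Columns were tied to samples by library name, and 2 columns without a match were not used. Starts were taken as 0-based and raised by 1, and genes came from GENCODE M21.

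From these counts, the 12 H3K27ac libraries of 4 lines were fitted together with edgeR 4.0.16 in R 4.3.3 (quasi-likelihood F-test, two-sided, TMM scaling, filterByExpr with its default minimums of 10 counts and 15 in total). P-values were adjusted with the Benjamini-Hochberg method and regions were called at an adjusted p under 0.05. Replicate pairs with a chi-square under 1 per degree of freedom, over regions with at least 40 counts, were summed. H3K9me3 and the separate lines were fitted apart with the same test. CPM used TMM-scaled library totals. The promoter class held regions within 1 kb of a protein-coding start site. For a listed gene the region with the highest mean CPM within 1 kb of any of its own start sites was taken, so the noncoding genes Meg3, Kcnq1ot1, Peg13, Xist and Tsix lie outside that class. Tables and figures were made with Python 3.11.15, pandas 2.3.3, numpy 2.4.6 and matplotlib 3.10.9. In counts simulated for 192158 regions, changes were put only into regions with a mean of at least 1 CPM. Of these, 40 of 100 regions changed 2-fold and 92 of 100 changed 4-fold were recovered, and 5 unchanged regions were called. Reads of PCR-amplified libraries are not independent molecules, so floors cover counting error only.

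Named promoters (12 per direction) and other regions (8 per direction, at most 1 per 200 kb) were those with the largest differences among calls whose libraries did not overlap, with at least 5 CPM in the higher line. Listed genes were named where called with a log2 difference of at least 1, with up to 4 further examples per list by level, and others as context. Windows were the 5 of 1 Mb with the largest share called one way. The comparison, the lists and the rules were chosen with earlier results of these data known. Alternatives included DESeq2 1.42.0, other scalings and filters, single libraries, a replicate block and each replicate left out.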

Additional observations from a re-analysis of the deposited data

Results flagged for a closer look

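Named windows, promoters and regions were screened for a difference between D2 and B6 that reversed between the series. In 2 cases it ran one way in every repeated library and the other way in every separate line. At the Kat6b promoter this was over a much wider region. Summed H3K27ac in the window from 22 to 23 Mb of chromosome 12 was 242, 257 and 273 CPM in the B6 libraries and 782, 746 and 683 CPM in the D2 libraries. In the separate lines it was 463, 450.5 and 446 CPM in B6 and 269, 272 and 283 CPM in D2. Without B6 5-1 and D2 5-5, the median log2 difference over 42 regions was -0.52. At the promoter of Kat6b, a histone acetyltransferase gene, the repeated libraries held 49.5, 48.8 and 50.8 CPM in B6 and 76.3, 65.5 and 78.2 CPM in D2 (0.53, edgeR adjusted p = 0.00117). With scaling factors from promoter regions it stood at 0.12 and was not called (adjusted p = 0.235). The counterpart in the separate lines is 90.4 kb wide and spans 22 of the regions counted here, so its level is not that of the promoter alone. It held 696, 631 and 655 CPM in B6 and 609, 605 and 567 CPM in D2, with a log2 difference of -0.18 that was not called (adjusted p = 0.198). Windows outside the named set were not screened. On chromosome 12, those from 18 to 19, 20 to 21 and 115 to 116 Mb reversed in the same way. From 20 to 21 Mb, summed H3K27ac was 558, 599.8 and 606 CPM in B6 and 1117, 820.3 and 1026 CPM in D2. In the separate lines it was 595, 600.3 and 581 CPM in B6 and 425, 433 and 441 CPM in D2. The difference between the series was not tested in any of these cases. The series used different antibodies and region lists, so antibody and series cannot be told apart. Groups of 3 libraries or lines were too small for the test of a single outlying value. Pairwise, D2-13B6 replicate 1 stood apart from the other libraries of its line, with a chi-square of 2.81 and 2.79 per degree of freedom.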

How the results depend on the processing

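Over 18 alternatives, all 710 values of the named promoters and regions kept their direction and call. Listed promoters quoted only as context, such as Sox2, Klf4 and Lin28a, were not followed one by one. Of 1803 values of the listed promoters named by the rule, 1649 kept direction and call, 62 lost the call and 43 gained one. Sign changed in 49, of which 38 were called in neither fit. The other 11 changed with TMM factors from promoter regions: Dppa5a -0.17, Duxf3 -0.39, Hsp90ab1 -0.05, Kat2b -0.03, Kat7 -0.21, Kdm5c -0.02, Pou5f1 -0.04, Rpl13a -0.02, Rpl3 -0.21, Spry2 -0.29 and Tet1 -0.21. Of 222 counts, 174 stayed within 1.5 times the main count.

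With DESeq2, 30495 regions were called, 17997 higher and 12498 lower, with 67059 adjusted p-values left as NA. It called 480 promoters lower, 12204 other regions higher and 12018 lower, 5 listed genes and 7 windows lower, and 34195 regions between the congenic lines. With TMM factors from promoter regions, 13273 regions were higher and 54481 lower, 3195 promoters higher and 2911 lower, 10078 other regions higher and 51570 lower, 63 listed genes higher and 44 lower, and 12 windows higher and 100 lower. With library totals, 1391 promoters, 20 listed genes and 22 windows were lower. With regions kept only above a mean of 20 counts, 13061 other regions were higher, 16 listed genes lower, 86 windows higher and 79 lower, and 3873 regions were called for H3K9me3; fewer regions were tested there. With no filter 11 windows were higher. With counterparts at most 2 times as wide, 7132 regions were called the same way in the separate lines, since fewer had one. With 12 single libraries 37 windows were higher and 41 lower. With the parental lines alone and none summed, 1431 promoters and 20 listed genes were lower, 68 windows higher and 103 lower, and with pairs summed 38 windows lower.

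Leaving out each parental replicate gave 39141 to 50439 calls, 22142 to 25594 higher and 16999 to 24845 lower. Promoters ranged from 5874 to 7008 higher and 544 to 946 lower, other regions from 16268 to 18586 higher and 16453 to 23918 lower, and listed genes from 100 to 117 higher and 5 to 11 lower. Windows ranged from 12 to 22 higher and 6 to 19 lower, and congenic calls from 54303 to 58198. The lowest promoter counts came without D2 replicate 2 (544 lower) and without B6 replicate 3 (546 lower). Without D2-13B6 replicate 1, which enters the shared spread, 29198 regions, 962 promoters and 28236 other regions were lower. Each fit without a replicate held fewer samples or fewer reads. Calls were fewer than in the main test without each parental replicate and more without D2-13B6 replicate 1. The cause of these shifts was not tested.

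Same-numbered libraries of the 2 lines did not deviate together (correlations of -0.0429, -0.00489 and 0.0246), so the numbers do not pair them. With the replicate block 62706 regions were called, against 63195 for the same 12 single libraries without it, and 38 windows were higher and 40 lower.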

Other observations

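Genes of the acetylation machinery rose at 11 of 17 promoters and fell at 0, with a median of 0.37 where 46.5% of all promoter genes rose (-0.03 with promoter scaling, 3 higher and 3 lower). Kat6a rose by 0.98, Crebbp, which encodes CBP, by 0.94, the deacetylase gene Sirt1 by 0.84 and Ep300, which encodes p300, by 0.36. In the separate lines 2 of these 17 promoters were higher in D2 and 1 was lower, with a median of 0.13 (27% and 7.37% of all promoter regions).

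Genes of the 2-cell-like state, a rare state that resembles the early embryo, had 6 of 12 promoters with a tested region, of which 0 rose and 1 fell, against 46.5% and 3.90% of all promoter genes (0 and 4 with promoter scaling, against 3195 and 2911 of 17765 promoter regions). That gene, Zscan4d, stood at -0.67, a call lost under several alternatives, and it belongs to a family of near-identical copies. Genes of the sex chromosomes rose at 7 of 10 promoters, among them Xist and Tsix on X and Ddx3y and Eif2s3y on Y. Without Xist and Tsix, which lie outside the protein-coding promoter class, 5 of 8 rose, against 46.5% of all promoter genes. The list of 10 had a median of 0.50 (0.08 with promoter scaling, 2 higher and 1 lower).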
